A study of Mus musculus with 6 samples.

Results

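The 10 genes described here, Rgs5, Mcam, Vtn, Pdgfrb, Cspg4, Notch3, Anpep, Higd1b, Rgs4 and Ndufa4l2, are markers of pericytes and other mural cells. They were chosen by name, with earlier results of these data known, leaving out potassium channel subunits. Each was taken from a row of the deposited value table that the platform annotation pairs with that symbol alone. All 10 had such a row, out of 22180 genes with a row. Only Rgs5 had a second row, and the one with the higher mean over the 6 arrays was used. RNA had been hybridised to Mouse Gene 2.0 ST arrays (Affymetrix), from cardiomyocytes cultured from the hearts of C57BL/6 mice aged 1 day. The FGF21 group of 3 samples was kept for 12 h at 2% oxygen, 5% CO2 and 93% N2 with 1 µg/ml of fibroblast growth factor 21, and the control group of 3 samples was kept in the same hypoxia without it. Both groups were therefore hypoxic, and no normoxic samples were analysed here. The cultures were enriched for cardiomyocytes by plating the heart cells for 1 h and taking those that had not attached, so other cells of the heart could remain.

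Mural cells wrap the endothelial tube: pericytes lie on capillaries, and smooth muscle cells surround arteries and veins. Endothelial cells draw them in by secreting platelet-derived growth factor B, which acts on the receptor Pdgfrb of the pericyte, and Notch ligands on the endothelium act on Notch3 of the neighbouring mural cell. Pericytes are known for keeping vessels stable and for regulating capillary flow, and the heart holds many of them. None of these markers is exclusive: fibroblasts also carry Pdgfrb, endothelial cells carry Mcam, and Vtn is made mostly by the liver.

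All values are log2 expression from the authors' robust multi-array average (RMA), and every difference is FGF21 minus control on that scale, from limma over all 22180 genes with two-sided p-values unless another fit is named. The labels call the replicates of each group biological, and do not say whether they came from separate litters or cell preparations. Of the cardiomyocyte markers, Tnnt2, the cardiac troponin T gene, was bright in all 6 arrays, at 13.15 with FGF21 and 13.13 in controls. So was Myh6, the alpha myosin heavy chain gene, at 11.89 with FGF21 and 11.96 in controls. Myh7 was less bright, at 7.44 with FGF21 and 7.34 in controls. Fibroblast markers were bright too, with Col1a1 at 11.95 with FGF21 and 12.02 in controls. Dcn was at 12.03 with FGF21 and 11.99 in controls. At an adjusted p under 0.05 limma called 0 of the 22180 genes (0%), and 2594 (11.7%) had an unadjusted p under 0.05, with 5.11% of genes lower and 6.59% higher. Of these 2594 genes 43.7% were lower, or 20.1% of the genes at that p after each array was centred on its median.

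Of the mural markers, 3 had lower values with FGF21 and 7 differed by a fold under 1.1 in either direction. The lower ones were Rgs5, Mcam and Vtn, a regulator of G-protein signalling, an adhesion molecule and a matrix protein. Each had an unadjusted p under 0.05 and groups that did not overlap, but none passed limma's adjustment over all genes, the smallest adjusted p being 0.281. At the unadjusted threshold 3 of 10 members were lower, against 5.11% of all genes, and 0 were higher, against 6.59%. Groups lay apart for 3 of 10 members and for 17.1% of all genes; FGF21 was below in all 3, against 8.14% of all genes, and above in 0 members, against 8.99%. The members were chosen with earlier results of these data known, so these shares are a description with no test. The median difference over the 10 members was -0.00078, beside -0.0056 over all genes. In these bulk samples fewer cells of a type and less RNA per cell cannot be told apart.

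**Figure D1:**
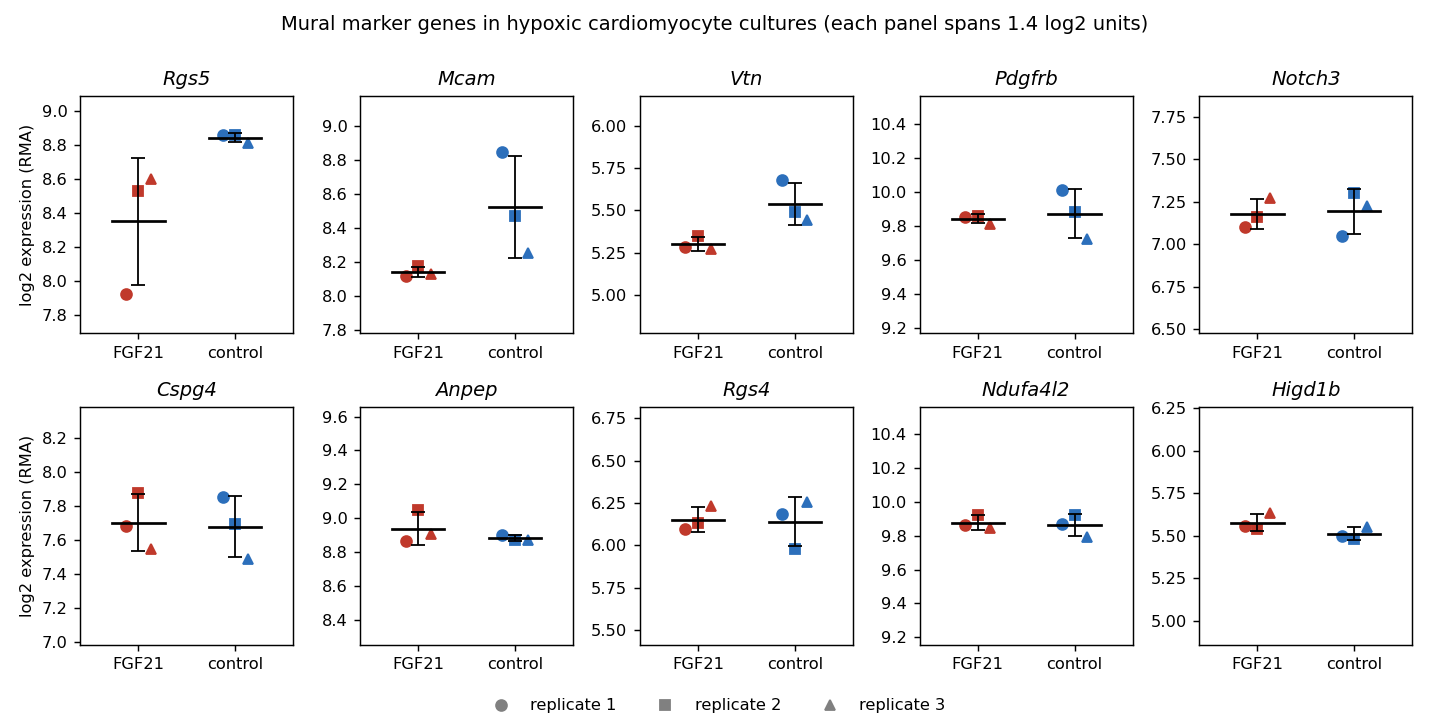
Log2 expression (RMA) of the 10 mural marker genes in each array, FGF21 left and control right; marker shapes give the replicate, the horizontal line is the mean and the bar 1 SD (n = 3 each), and each panel spans 1.4 log2 units. The groups lie apart for Rgs5, Mcam and Vtn and overlap for the other 7 genes.

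Rgs5 encodes a GTPase-activating protein that shortens signalling through Gq- and Gi-coupled receptors, and it is among the most used transcripts for recognising pericytes. It stood at 7.92, 8.53 and 8.60 with FGF21 and at 8.86, 8.86 and 8.81 in controls. The controls lay within a narrow band, all FGF21 arrays were below it, and FGF21 replicate 1 was far lower than the other FGF21 arrays. The difference was -0.49 ± 0.15 (SE), a level 1.41-fold lower with FGF21 (unadjusted p = 0.00858, limma adjusted p of 0.281). Without FGF21 replicate 1 it was -0.28. The second row of Rgs5 had the same order of groups: 5.14, 5.78 and 5.77 with FGF21 and 6.12, 6.26 and 5.93 in controls, a difference of -0.55 ± 0.18 (SE), from a limma fit over all rows of the table, in which the row used had an SE of 0.17. FGF21 replicate 1 was the lowest array in that row too, and without it the difference was -0.34. The unadjusted limma p of the second row was 0.0198, but 0.0533 when control replicate 1 was left out and 0.0666 when control replicate 2 was. The spread over the 3 arrays was 0.374 with FGF21 and 0.0268 in controls (SD of the row used).

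Mcam encodes the adhesion molecule CD146, which lies on both pericytes and endothelial cells. Its values were 8.12, 8.18 and 8.13 with FGF21 and 8.85, 8.47 and 8.25 in controls. Here the FGF21 arrays were tight and the controls spread, with control replicate 1 the highest. The difference was -0.38 ± 0.13 (SE), or 1.30-fold lower with FGF21 (unadjusted p = 0.0125, limma adjusted p of 0.311). Without control replicate 1 it was -0.22.

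Vtn encodes vitronectin, a secreted glycoprotein that binds integrins and matrix. It measured 5.28, 5.35 and 5.27 with FGF21, against 5.68, 5.49 and 5.44 in controls. The difference of -0.24 ± 0.08 (SE, 1.18-fold lower with FGF21) had an unadjusted p of 0.0112 and a limma adjusted p of 0.302. All 3 FGF21 arrays were below all controls, but the gene was dim: 31.0% of genes had a mean signal over the 6 arrays at or below its own. Whether it was above background was not tested.

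Rgs5, Mcam and Vtn were the members lower with FGF21 at an unadjusted limma p under 0.05. The windows around the RefSeq transcription starts of these 3 genes, 250 bases before and 50 after, are shown for that reason only. They come from RefSeq on GRCm38.p6, all on the + strand: Rgs5 at chr1:169655251-169655550, Mcam at chr9:44134408-44134707 and Vtn at chr11:78498870-78499169. Capitals mark TGGGAA, the core bound by RBPJ, the nuclear partner of Notch, and ACGTG or GCGTG, the core of the hypoxia response element, each searched on both strands; TGGGAA does not overlap either of the others where found.
Rgs5: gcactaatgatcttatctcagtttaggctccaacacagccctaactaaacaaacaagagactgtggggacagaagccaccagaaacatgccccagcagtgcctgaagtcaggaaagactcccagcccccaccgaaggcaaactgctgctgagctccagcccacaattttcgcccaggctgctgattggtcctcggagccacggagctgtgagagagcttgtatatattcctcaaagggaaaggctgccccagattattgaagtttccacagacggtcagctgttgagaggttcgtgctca
Mcam: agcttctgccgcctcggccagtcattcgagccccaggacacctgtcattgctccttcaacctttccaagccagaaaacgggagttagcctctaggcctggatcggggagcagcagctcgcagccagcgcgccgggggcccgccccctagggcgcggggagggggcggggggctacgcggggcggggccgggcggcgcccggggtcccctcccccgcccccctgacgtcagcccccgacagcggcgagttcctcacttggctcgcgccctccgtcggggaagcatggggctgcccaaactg
Vtn: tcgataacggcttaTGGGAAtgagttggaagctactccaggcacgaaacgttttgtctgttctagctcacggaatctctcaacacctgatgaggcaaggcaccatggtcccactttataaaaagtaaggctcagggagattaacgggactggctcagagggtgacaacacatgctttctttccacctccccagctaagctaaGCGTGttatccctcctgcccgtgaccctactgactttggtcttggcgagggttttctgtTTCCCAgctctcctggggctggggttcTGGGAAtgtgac
The Vtn window held 3 matches to TGGGAA and 1 to GCGTG, and the Rgs5 and Mcam windows held 0 of these motifs. Of 32851 RefSeq windows of the same length, 25.6% held TGGGAA and 43.8% held ACGTG or GCGTG. Bases G and C made up 52.3% of the Rgs5 window, 72.7% of the Mcam window and 51.7% of the Vtn window, beside a median of 52.7% over all windows. The 3 windows thus had no marked motif in common. Windows of 7 of the 10 members were searched, and those of Pdgfrb, Higd1b and Ndufa4l2 were not. Pdgfrb was left out of the search, so nothing is said of its motifs. Among the 7 searched, Notch3 had the most matches to ACGTG or GCGTG, with 3. The CArG box, bound by serum response factor in smooth muscle genes, was in 0 of the 7 and in 1.63% of all windows.

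**Figure D2:**
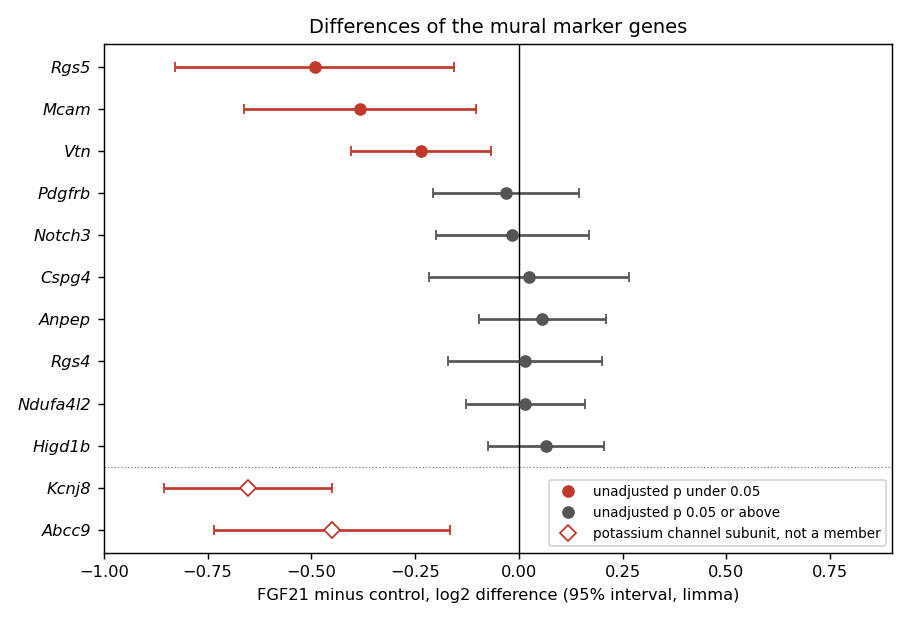
Log2 differences, FGF21 minus control, with 95% intervals from limma, for the 10 mural marker genes (filled circles) and for 2 potassium channel subunits of mural cells that are not members (open diamonds); red marks an unadjusted p under 0.05. The intervals of Rgs5, Mcam and Vtn lie below 0, and those of the other 7 members include 0.

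Pdgfrb and Notch3, the members that are receptors of recruitment signals, had overlapping groups. Pdgfrb, the receptor tyrosine kinase for platelet-derived growth factor B, was at 9.85, 9.86 and 9.81 with FGF21 and 10.01, 9.89 and 9.73 in controls. The FGF21 arrays fell inside the range of the controls, and the difference was -0.031, with an interval of the fold from 0.866 to 1.11. Notch3 stood at 7.10, 7.16 and 7.27 with FGF21 and at 7.05, 7.30 and 7.23 in controls. Its difference of -0.016 had a fold interval of 0.871 to 1.12. The signs of both are not settled: after median centring Pdgfrb was at 0.0046 and Notch3 at 0.020.

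The other surface proteins did not separate the groups either. Cspg4, which encodes the proteoglycan NG2, was at 7.68, 7.88 and 7.55 with FGF21 and 7.85, 7.69 and 7.49 in controls, a difference of 0.023 with a fold interval of 0.860 to 1.20, the widest among the 7. Anpep, the aminopeptidase N gene (CD13), was at 8.86, 9.05 and 8.91 with FGF21 and 8.90, 8.88 and 8.87 in controls. Its difference was 0.057, with a fold interval of 0.936 to 1.16, and it was 0.0018 without FGF21 replicate 2. Both turned slightly negative, Cspg4 to -0.024 and Anpep to -0.00070, when quantile normalization was applied again.

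Rgs4 is a close relative of Rgs5, with the same activity on G proteins, and its RefSeq start lies 92.1 kb from that of Rgs5 on chromosome 1. It measured 6.09, 6.13 and 6.23 with FGF21, against 6.18, 5.98 and 6.26 in controls. The groups overlapped fully, with a difference of 0.014 and a fold interval of 0.888 to 1.15. Its sign is not settled, and the gap between the Rgs5 and Rgs4 differences was not tested.

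Both mitochondrial members were nearly equal in the groups. Ndufa4l2, a target of hypoxia-inducible factor whose protein lowers complex I activity, was at 9.86, 9.92 and 9.84 with FGF21 and 9.87, 9.92 and 9.79 in controls. The difference was 0.016, with a fold interval of 0.915 to 1.12, and it was -0.028 with quantile normalization applied again. Higd1b, a member of the hypoxia-induced gene domain family, was at 5.56, 5.54 and 5.64 with FGF21 and 5.50, 5.48 and 5.55 in controls. Its difference of 0.066 had a fold interval of 0.950 to 1.15, and it was 0.037 without FGF21 replicate 3. Of these 7 genes the unadjusted p-values ran from 0.315 to 0.869, and limma's adjusted p-values from 0.710 to 0.964. Rgs4 and Higd1b were dim, with 48.8% and 34.1% of genes at or below their mean signal, so a lack of difference says little there.

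**Figure D3:**
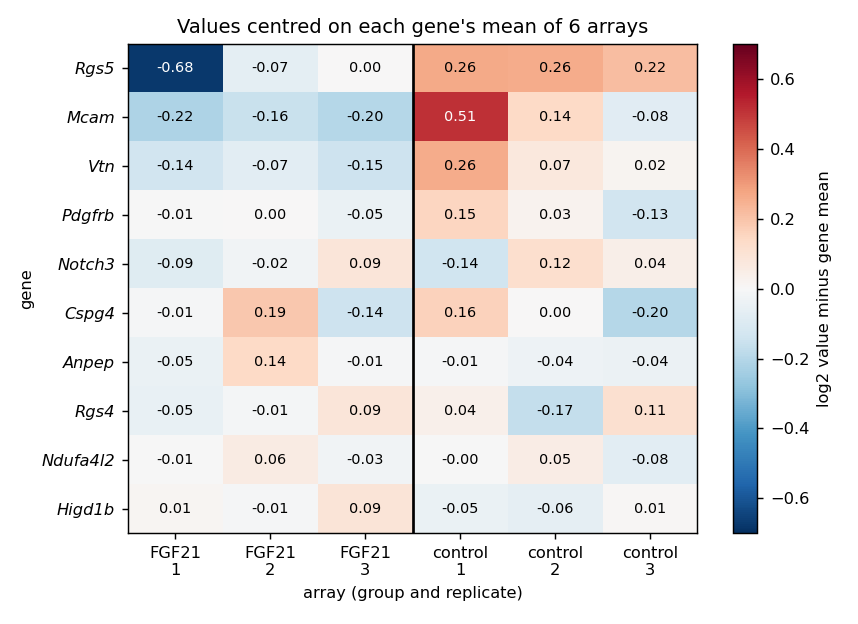
Each gene's log2 value in each array minus its mean over the 6 arrays, FGF21 arrays left of the line and controls right. Rgs5 reaches -0.68 in FGF21 replicate 1, Mcam 0.51 in control replicate 1, and the rows from Pdgfrb down hold no block that separates the groups.

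Not all members had the same order of arrays within the groups, but 6 of the 10 shared their order in the controls. FGF21 replicate 1 was the lowest FGF21 array for 5 of the 10 members (Rgs5, Mcam, Notch3, Anpep and Rgs4), and FGF21 replicate 2 the highest for 6. Control replicate 1 was the highest control for 6 members: Rgs5, Mcam, Vtn, Pdgfrb, Cspg4 and Anpep. Control replicate 3 was the lowest for 7, these same 6 and Ndufa4l2. The mean over the 10 members was 7.63, 7.76 and 7.73 with FGF21 and 7.87, 7.80 and 7.74 in controls. On this mean the groups overlapped, FGF21 replicate 2 lying above control replicate 3.

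Within each array, the 3 lower genes were set against Pdgfrb, a choice made after their values were seen. Rgs5 minus Pdgfrb was -1.93, -1.33 and -1.21 with FGF21 and -1.15, -1.03 and -0.92 in controls. Mcam minus Pdgfrb was -1.74, -1.69 and -1.68 with FGF21 and -1.16, -1.41 and -1.47 in controls. Vtn minus Pdgfrb was -4.57, -4.51 and -4.54 with FGF21, against -4.33, -4.39 and -4.28 in controls. The group differences were -0.46, -0.35 and -0.20. Since these genes were picked for groups that lay apart and Pdgfrb for its small difference, the values are a description with no test.

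The members were also compared with other genes of mural recruitment. Like the lists that follow, this list was chosen with earlier results of these data known. Of 32 ligands, receptors and targets, all with a row, 4 were lower and 2 higher at an unadjusted p under 0.05, against 5.11% and 6.59% of all genes. None passed limma's adjustment, the smallest adjusted p being 0.192, and the median difference was 0.0077. Those lower included Angpt2, the angiopoietin that loosens pericytes from vessels, at -0.34 ± 0.08 (SE), and the Notch target Hey1 at -0.33 ± 0.08. Dll4, a Notch ligand of arterial endothelium, was also lower, at -0.37 ± 0.11, or -0.26 without control replicate 1. Dll4 was dim, with 39.6% of genes at or below its mean signal. Rbpj was higher by 0.31 ± 0.07, but by 0.13 as the mean of its rows, with an unadjusted p of 0.0812. Pdgfb, the ligand of Pdgfrb, differed by 0.09 ± 0.11, the Notch ligand Jag1 by 0.016 ± 0.076, and Angpt1, the angiopoietin that mural cells make, by 0.11 ± 0.09. Pdgfra, the related receptor of fibroblasts, differed by 0.041 ± 0.066. The signs of Pdgfb and Jag1 turned when single arrays were left out, and without control replicate 1 Angpt1 was at 0.0034 and Pdgfra at 0.0082.

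Of 26 further pericyte genes, 25 had a row. At an unadjusted p under 0.05, 3 were lower and 0 higher, against 5.11% and 6.59% of all genes. The median was -0.06 and the smallest limma adjusted p was 0.219. The 3 were Itga1, an integrin subunit that binds collagen, at -0.35 ± 0.09 (SE), Itga7, a laminin-binding integrin subunit, at -0.23 ± 0.08, and Steap4, a metalloreductase gene, at -0.21 ± 0.07. Leaving out FGF21 replicate 2 gave Itga7 a p of 0.0620, leaving out control replicate 1 gave 0.0729, and leaving out control replicate 3 gave 0.0601. For Steap4 the p was 0.0524 without FGF21 replicate 3, and 0.0679 when control replicate 3 was left out. Zic1, a transcription factor gene, had a difference of -0.15 ± 0.07 and did not reach an unadjusted p under 0.05. With single arrays left out Zic1 ran from -0.21 to -0.093. Steap4 and Zic1 were dim, with 21.9% and 20.1% of genes at or below their mean signal. From which cells the signals of this list came, Itga7 and Itga1 included, was not tested.

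Kcnj8 and Abcc9, the pore and sulphonylurea receptor subunits of the pericyte ATP-sensitive potassium channel, were left out of the members by the rule. Kcnj8 was at 7.13, 7.39 and 7.24 with FGF21 and 7.96, 8.01 and 7.75 in controls, and Abcc9 at 9.65, 9.69 and 9.76 with FGF21 and 10.50, 9.99 and 9.97 in controls. Their differences were -0.65 ± 0.09 and -0.45 ± 0.13 (SE), and that of Abcc9 was -0.28 without control replicate 1. Like Mcam and Vtn, Abcc9 had its highest value in control replicate 1, and so did the cardiomyocyte markers Ttn and Myh6. Abcc9 was bright, with 96.9% of genes at or below its mean signal. Which cells its signal came from was not tested.

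All 15 smooth muscle contractile genes were measured, with a median of -0.02. At an unadjusted p under 0.05, 0 were lower and 1 higher, against 5.11% and 6.59% of all genes. Acta2, the smooth muscle actin gene, was at 12.00 with FGF21 and 12.04 in controls, a difference of -0.045 ± 0.060 (SE). The 1 higher gene was Myh11, the smooth muscle myosin heavy chain gene, at 0.16 ± 0.06. Its p was 0.0874 without FGF21 replicate 3 and 0.0713 without control replicate 2. Myh11 was far less bright than Acta2, at 6.86 with FGF21 and 6.71 in controls. Which cells gave the signals of this list was not tested.

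**Figure D4:**
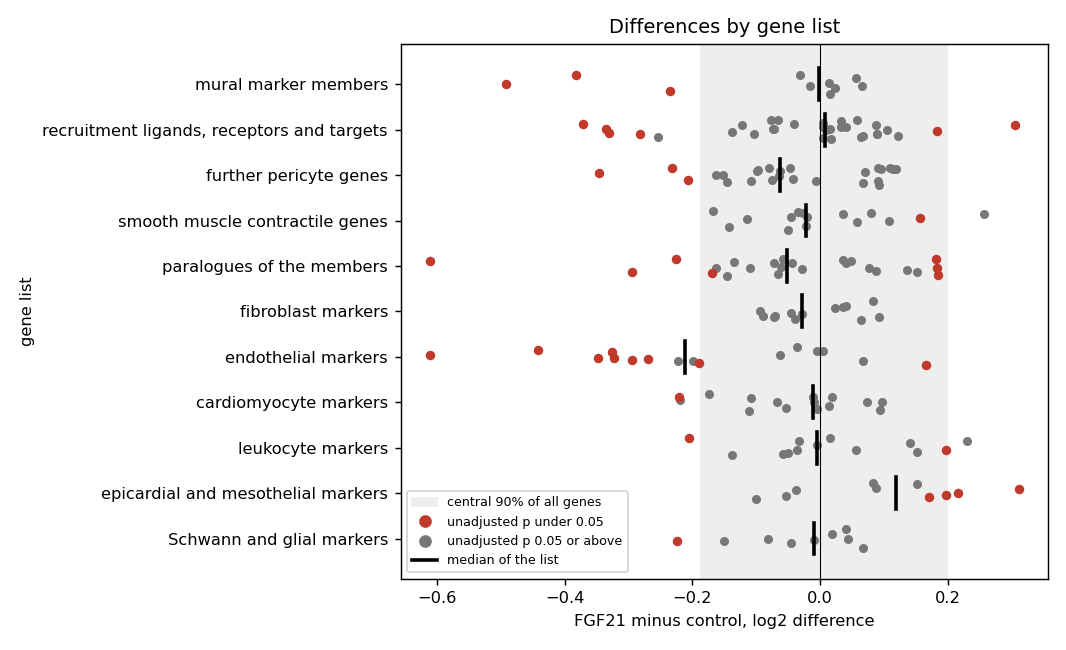
Log2 differences, FGF21 minus control, of the genes of each list (points), with the median of the list as a black bar, genes at an unadjusted p under 0.05 in red, and the central 90% of all genes, from -0.19 to 0.20, shaded. The mural marker median lies near 0 with 3 genes far to the left, and the endothelial median lies at -0.21.

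Paralogues of the members differed in both directions. Of 26 written, 24 had a row, with 4 lower and 3 higher at an unadjusted p under 0.05, against 5.11% and 6.59% of all genes. Rgs16, of the same subfamily as Rgs5, had a difference of -0.23 ± 0.08 (SE). Bcam, an adhesion molecule of the immunoglobulin superfamily like Mcam, had one of -0.29 ± 0.09, or -0.19 without control replicate 1. Higd1a, the paralogue of Higd1b, was higher by 0.18 ± 0.07, and Ndufa4, the paralogue of Ndufa4l2, differed by 0.09 ± 0.08, or by 0.016 without control replicate 1. In the limma fits with an array left out, the unadjusted p of Rgs16 was 0.0503 without FGF21 replicate 2 and 0.0533 without control replicate 2. That of Higd1a was 0.0734 without FGF21 replicate 2 and 0.0696 without control replicate 1. The list count was 3 without control replicate 2 and 4 with quantile normalization applied again, instead of 7.

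Markers of other cells gave these values beside the 3 lower mural genes. For comparison with the counts below, 5.11% of all genes were lower and 6.59% higher at an unadjusted p under 0.05. Of 16 endothelial markers 8 were lower and 1 higher at an unadjusted p under 0.05, with a median of -0.21. On average they stood at 7.27, 7.43 and 7.43 with FGF21 and at 7.66, 7.55 and 7.49 in controls. The lowest value was in FGF21 replicate 1, as for Rgs5, and the highest in control replicate 1, as for Mcam and Vtn. This order of arrays was not particular to endothelial markers. FGF21 replicate 1 also had the lowest mean for the fibroblast, leukocyte, recruitment, paralogue and further pericyte lists. Control replicate 1 had the highest for the cardiomyocyte, smooth muscle and paralogue lists. Cdh5, the endothelial cadherin gene, differed by -0.44 ± 0.13 (SE), and Pecam1 by -0.32 ± 0.10, or -0.21 without FGF21 replicate 1. The part of endothelial cells in the Rgs5, Mcam and Vtn differences was not tested. Of 13 fibroblast markers 0 reached that p, with a median of -0.03 and list means of 9.94 to 10.03 with FGF21 and 9.97 to 10.03 in controls. Of 15 cardiomyocyte markers 1 was lower, Tnni1, the slow skeletal troponin I gene, at -0.22 ± 0.06. Of 13 leukocyte markers, Cd68 was lower, at -0.20 ± 0.06, and Ptprc higher, at 0.20 ± 0.08 (0.14 without FGF21 replicate 3, with a p of 0.126). Of 10 epicardial and mesothelial markers 4 were higher and 0 lower, among them Krt19 at 0.31 ± 0.08. The count was 1 without FGF21 replicate 2 and 2 without control replicate 1. Of 11 Schwann and glial markers 9 had a row and 1 was lower, S100b at -0.22 ± 0.06. S100b was dim, with 31.7% of genes at or below its mean signal. Sox10 was at -0.15 ± 0.07 with an unadjusted limma p of 0.0580. Without FGF21 replicate 1 Sox10 was at -0.19 with an unadjusted limma p of 0.0354, which made the count 2, and without FGF21 replicate 2 it was at -0.092.

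The genes closest to Rgs5, which also had the largest difference among the members, were found by the root mean square difference of centred log2 values over the 6 arrays. They were Kcne3, a potassium channel subunit gene, at 0.0833, Btbd35f5 at 0.0944 and Mir761 at 0.0991, while the values of Rgs5 itself had an SD of 0.359 over the arrays. Kcne3 was at 6.81, 7.49 and 7.54 with FGF21 and 7.87, 8.01 and 7.85 in controls, a difference of -0.63 ± 0.16 (SE). Like Rgs5, it had its lowest value in FGF21 replicate 1, and without that array its difference was -0.39. With 22180 genes and 6 arrays such likeness is a description only.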

How the data were processed

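Total RNA of 6 samples, 3 with FGF21 and 3 without, was hybridised to 1 array each, and titles gave the group and replicate number. The values the authors deposited are log2 expression, made by the authors with RMA in the affy package of R 3.2.2, as stated per the labels' processing notes. Since RMA equalises the distributions, a change shared by every gene would be lost, and differences of dim genes are compressed. Neither chip definition nor probe genome build is stated (not given in the sources used here). The table had 41345 rows, of which 23521 had 1 gene symbol, 1814 several and 16010 none in the naming table; only the first were named. Where a gene had several rows, as 1082 genes did, the row with the highest mean over the 6 arrays was used, without a filter on dim genes. The arrays' medians over all rows ran from 5.76 to 5.83, lower in the FGF21 arrays (5.76 to 5.79) than in the controls (5.81 to 5.83), and 0 pairs of arrays were identical. The number of arrays limits the precision.

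The comparison was fitted with limma 3.58.1, under R 4.3.3, without covariates, with Benjamini-Hochberg adjustment over 22180 genes, a threshold of 0.05 and intervals at 95%. The fit was tested on simulated data. The 10 members and the 10 other gene lists were chosen with earlier results of these data known. Genes named from each other list are those of its 4 with the smallest p. A fixed set was added (Pdgfb, Pdgfra, Jag1, Dll4, Angpt1, Acta2, Myh11, Pecam1, Cdh5, Tnnt2, Myh6, Ptprc, Sox10, Ndufa4, Higd1a). Kcnj8, Abcc9 and the 3 genes closest to Rgs5 were named too. Of all these the text gives a part, picked with their values known. Myh7 and Dcn are given for their levels, outside this rule. Alternatives were a replicate block, leaving out each array, all rows, only genes at or above the median level, averaging a gene's rows, median centring, a second quantile normalization, and a robust prior with a trend.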

Additional observations from a re-analysis of the deposited data

How the results depend on the processing

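Rgs5 and Mcam kept their direction and an unadjusted p under 0.05 in all 13 alternatives run, and Vtn in the 12 that kept it (its level is below the median gene). Over these the difference ran from -0.62 to -0.28 for Rgs5, from -0.52 to -0.22 for Mcam and from -0.28 to -0.16 for Vtn. In each of the 13 alternatives 0 members passed limma's adjusted p; the smallest member adjusted p ran from 0.150, with dim genes left out, to 0.490 without FGF21 replicate 2. The median of the members ran from -0.04 to 0.03 with an array left out. The count of all genes at an adjusted p under 0.05, which is 0, was 58 with dim genes left out, 2 when a gene's rows were averaged, 5 with quantile normalization applied again, 12 with median centring, 16 with the trend and robust prior, and 0 to 2 with an array left out. The count at an unadjusted p under 0.05, which is 2594, was 1700 with dim genes left out and ran from 1710 to 3028 with an array left out.

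Signs turned for genes near 0, and the cause was not tested. With quantile normalization applied again Anpep was at -0.00070, Cspg4 at -0.0236 and Ndufa4l2 at -0.0280; with median centring Notch3 was at 0.0204 and Pdgfrb at 0.0046. With single arrays left out, Cspg4 ran from -0.0702 to 0.110, Ndufa4l2 from -0.0183 to 0.0462, Notch3 from -0.0886 to 0.0399, Pdgfrb from -0.105 to 0.0370 and Rgs4 from -0.0668 to 0.0728. Outside the members, Jag1 ran from -0.0326 to 0.0887, Pdgfb from -0.0279 to 0.165, Tnnt2 from -2.55e-05 to 0.0316 and Myh6 from -0.144 to 0.0514.

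With single arrays left out, list counts at an unadjusted p under 0.05 ran from 3 to 8 for paralogues, 1 to 4 for leukocyte markers, 1 to 5 for epicardial markers, 1 to 3 for cardiomyocyte markers, 2 to 4 for further pericyte genes, 0 to 2 for smooth muscle genes, 1 to 2 for Schwann and glial markers and 7 to 10 for endothelial markers.

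Samples of the 2 groups share only a replicate number: their deviations from the group means had correlations of 0.103, 0.158 and 0.0065 within a number. That not every array was closest to its own number (4 of 6 were) is a hint from the data and not the design. The replicate block left the counts for the members at 3 lower and 0 higher at an unadjusted p under 0.05. The smallest limma adjusted p of a member was 0.195 with the block and 0.281 without it. Genes at an unadjusted p under 0.05 numbered 1627 higher and 1275 lower under the block, beside 1461 and 1133 without it.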
